A study of Mus musculus with 18 samples.

Results

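Here, 9 transporter genes of the kidney proximal tubule were followed across 6 groups of 3 kidneys from mice with or without an obstructed ureter. They were taken by symbol from the table of raw read counts, which lists 31787 genes, and each of the 9 passed the filter on low counts that kept 21050 genes for testing. Slc5a1, Slc5a2 and Slc2a2 carry glucose, Slc5a8 and Slc5a12 carry lactate and other monocarboxylates, Slc13a1 carries sulfate, Slc13a3 carries dicarboxylates, and Slc9a3 and Slc4a4 carry sodium with acid or bicarbonate. Levels are given as counts-per-million (CPM), with libraries scaled to each other by TMM, the trimmed mean of M-values. Fold changes are on the log2 scale with their standard error (SE), from the quasi-likelihood test of edgeR, with p-values adjusted over all 21050 genes by Benjamini and Hochberg's method, and a gene was called at an adjusted p under 0.05, two-sided.

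Obstruction was unilateral ureteral obstruction (UUO), in which 1 ureter is tied and the kidney above it becomes injured and scarred. The Twist cKO UUO group carried Cdh5-CreERT2, a tamoxifen-activated Cre driven by an endothelial promoter, with floxed Twist alleles. The Snail cKO UUO group carried the same Cre with floxed Snail alleles, and the Myc cKO UUO group carried GGT-Cre, a Cre of tubular epithelium, with floxed Myc alleles. In the WT UUO group and in the contralateral group (kidneys opposite a tied ureter), replicates 1 and 2 were Cre-positive without floxed alleles, and replicate 3 was Cre-negative with floxed Twist. Each of the 3 healthy kidneys had floxed Twist and no Cre. The Twist line, which supplied the Twist cKO UUO group and all 9 WT UUO, contralateral and healthy kidneys, mixed C57BL6, 129sv and Balb/c. The Snail and Myc lines mixed C57BL6 and Balb/c, so in those comparisons line and knockout cannot be told apart. Mice were 12 weeks old at the end point, or 11 to 12 weeks in the Myc cKO UUO group. The labels tie no 2 kidneys to the same animal and do not give the days of obstruction, so the p-values rest on the variation among libraries.

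The proximal tubule takes back filtered glucose, organic anions, bicarbonate and sodium from the urine. Glucose enters the cell from the lumen with sodium, through Sglt2 (encoded by Slc5a2) in the early segments and Sglt1 (Slc5a1) in the late segment, and leaves toward the blood through Glut2 (Slc2a2). Lactate is recovered by Smct2 (Slc5a12) in the early tubule and Smct1 (Slc5a8) in the late tubule. Slc13a1 (NaS1) takes up sulfate at the lumen, and Slc13a3 (NaDC3) brings citrate-cycle intermediates in from the blood. Slc9a3 (NHE3) exchanges luminal sodium for protons, and Slc4a4 (NBCe1) moves the recovered bicarbonate into the blood.

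The genes lie on 7 chromosomes of mm10, in the GENCODE M21 annotation. Slc5a1 is at chr5:33104219-33162870 on the plus strand and Slc4a4 at chr5:88886818-89239653 on the plus strand. Slc5a2 is at chr7:128265657-128272430 (plus), Slc5a8 at chr10:88885992-88929515 (plus) and Slc2a2 at chr3:28697903-28731359 (plus). Slc5a12 is at chr2:110597298-110647779 (plus) and Slc13a3 at chr2:165405028-165473230 (minus). Slc13a1 is at chr6:24088283-24168092 (minus) and Slc9a3 at chr13:74121457-74169442 (plus). Exons of BC017158, 1700112D23Rik and Gm14437 overlap Slc5a2, Slc2a2 and Slc13a3 on the opposite strand. The library kit marks strand, but the strand setting of the counting is not given in the sources used here, so the division of reads within those pairs is uncertain. The levels of the overlapping genes were 15.2 to 17.6 CPM in WT UUO and 20.1 to 20.8 CPM in contralateral kidneys for BC017158. They were 0.236 to 0.462 CPM in WT UUO and 0.968 to 1.34 CPM in contralateral kidneys for 1700112D23Rik. For Gm14437 they were 0.0709 to 0.0998 CPM in WT UUO and 2.24 to 2.56 CPM in contralateral kidneys.

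Since the study asks about Myc in tubular cells, the promoters were read for CACGTG, the E-box that Myc binds, and for 4 other short motifs. RefSeq (GRCm38.p6) windows of 200 bases, from 250 to 51 bases before an annotated start, were at hand for 6 of the 9 genes, with 2 starts for Slc4a4. CACGTG, which reads the same on both strands, was in 3 of these 7 windows, against 4.34% of 32851 promoter windows. It began at position -143 relative to the start in Slc5a1, -154 in Slc13a3 and -87 in Slc9a3. These 3 windows are shown 5′ to 3′ on the strand of the gene, with the E-box in capitals, because they hold the match (Slc5a1 chr5:33103969-33104168 plus, Slc13a3 chr2:165473248-165473447 minus, Slc9a3 chr13:74121163-74121362 plus).
Slc5a1: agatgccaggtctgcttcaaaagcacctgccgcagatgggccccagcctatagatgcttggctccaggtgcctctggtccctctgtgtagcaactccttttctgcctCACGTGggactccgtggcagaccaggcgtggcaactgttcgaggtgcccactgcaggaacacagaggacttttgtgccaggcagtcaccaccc
Slc13a3: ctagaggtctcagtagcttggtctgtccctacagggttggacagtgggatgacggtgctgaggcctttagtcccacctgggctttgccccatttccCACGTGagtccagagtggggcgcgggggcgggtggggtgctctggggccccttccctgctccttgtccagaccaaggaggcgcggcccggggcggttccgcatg
Slc9a3: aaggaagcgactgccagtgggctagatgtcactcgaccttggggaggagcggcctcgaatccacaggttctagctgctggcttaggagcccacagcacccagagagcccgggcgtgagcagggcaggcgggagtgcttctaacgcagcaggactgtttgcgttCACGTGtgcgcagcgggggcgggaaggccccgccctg
The shorter ACGTG, the core of a hypoxia response element, was in the same 3 windows and 12.9% of all windows, and each match lay inside the E-box. CAGGTG, the E-box that Snail binds, was on either strand in 4 of the 7 windows (14.4% of all), CAAAGT, part of an HNF4 site, in 2 (10.5%) and GTTAAT, part of an HNF1 site, in 0 (5.33%). A match describes the letters in the window, not binding. No promoter window was at hand for Slc5a2, Slc5a12 and Slc13a1.

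Libraries held 52637555 to 91340782 counts. Ribosomal RNA of mitochondria (mt-Rnr1 with mt-Rnr2) made up a mean of 26.7% of them in Twist, 25.0% in Snail and 30.8% in Myc cKO UUO, 19.6% in WT UUO and 48.0% in both contralateral and healthy kidneys. Scaling by library totals alone moved the median log2 fold change of all genes to 1.12 in WT UUO against healthy and 1.1 against contralateral kidneys, where it was near 0 with TMM scaling. Of the targeted genes, Twist1 fell by 2.59 ± 0.49 in Twist cKO UUO relative to WT UUO kidneys (adjusted p = 0.0172). Snai1 differed by -0.61 ± 0.38 in Snail cKO UUO (adjusted p = 0.487) and Myc by -0.45 ± 0.23 in Myc cKO UUO (adjusted p = 0.217), in RNA from all cells of the kidney. Mean Twist1 was 0.43, 1.56 and 1.01 CPM in Twist, Snail and Myc cKO UUO and 2.59 CPM in WT UUO. Mean Snai1 was 2.01, 1.98 and 1.32 CPM in the same knockouts and 3.01 CPM in WT UUO. Both were thus low, with means below WT UUO in every knockout. Ggt1, the gene after which GGT-Cre is named, fell by 3.05 ± 0.45 in WT UUO against contralateral kidneys (adjusted p = 4.67e-05).

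Under obstruction, 8 of the 9 transporter genes were called lower in WT UUO than in both contralateral and healthy kidneys, and Slc13a1 fell short of the threshold. Of all genes, 26% were called lower against contralateral and 27.1% against healthy kidneys. The median log2 fold change of the 9 genes was -3.03 against healthy kidneys, where the median of all genes was 0.05, and -3.11 against contralateral kidneys, where that of all genes was 0.06. For the same 8 genes every WT UUO library lay below every healthy and every contralateral library, which held in this direction for 29.7% and 29.8% of all genes. In whole kidney, fewer proximal tubule cells and less of an RNA per cell cannot be told apart. The 11 other proximal tubule markers, among them the uptake receptor Lrp2 and the transcription factor Hnf4a, were all called lower too, with summed levels of 767 to 1788 CPM in WT UUO, 14136 to 18055 CPM in contralateral and 13030 to 14646 CPM in healthy kidneys. Their part in the change of the transporters was not tested.

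**Figure D1:**
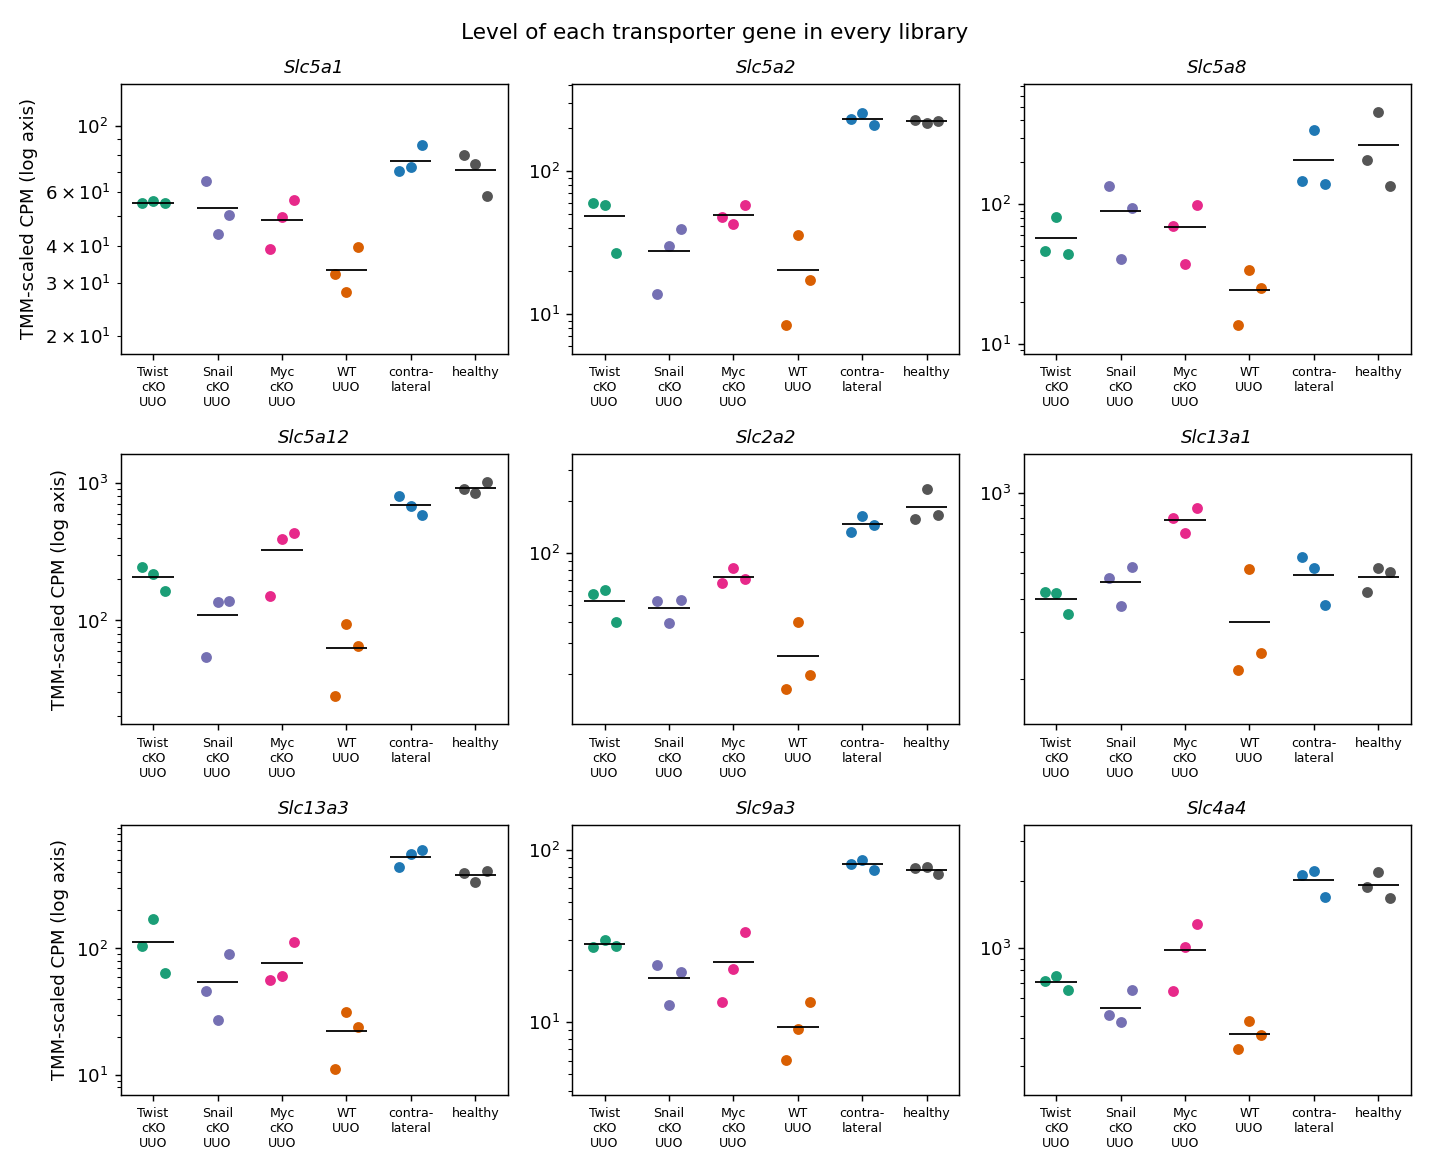
Level of each transporter gene in every library, as TMM-scaled CPM on a log axis, with 1 point per library and a line at the mean of 3. In 8 panels the WT UUO points lie below all contralateral and healthy points; in the Slc13a1 panel they overlap, and the 3 Myc cKO UUO points (703 to 873 CPM) lie above all others.

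Among the glucose carriers, Slc5a2 lost far more of its RNA than Slc5a1. Slc5a2 had 59.9, 57.7 and 26.9 CPM in Twist cKO UUO, 13.9, 29.8 and 39.7 CPM in Snail cKO UUO, 47.9, 43.0 and 57.6 CPM in Myc cKO UUO and 8.45, 35.5 and 17.3 CPM in WT UUO kidneys (replicates 1, 2 and 3). It had 231, 255 and 210 CPM in contralateral and 227, 217 and 224 CPM in healthy kidneys. All 12 obstructed libraries lay below all 6 unobstructed ones. Slc5a2 fell by 3.51 ± 0.48 in WT UUO against contralateral kidneys (adjusted p = 2.33e-05), to 8.80% of their level, and by 3.45 ± 0.48 against healthy kidneys (adjusted p = 2.33e-05).

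Slc5a1 had 55.2, 56.1 and 55.4 CPM in Twist cKO UUO, 65.7, 43.6 and 50.4 CPM in Snail cKO UUO, 39.1, 49.8 and 56.5 CPM in Myc cKO UUO and 32.1, 28.0 and 39.5 CPM in WT UUO kidneys. It had 70.7, 72.6 and 86.1 CPM in contralateral and 80.0, 74.5 and 58.6 CPM in healthy kidneys. WT UUO lay below both unobstructed groups, while Snail cKO UUO replicate 1 reached the range of the healthy kidneys. Slc5a1 fell by 1.20 ± 0.17 against contralateral (adjusted p = 3.48e-05) and by 1.10 ± 0.17 against healthy kidneys (adjusted p = 7.2e-05) in WT UUO, to 43.4% and 46.8% of their levels. Scaled by library totals alone, Slc5a1 was not called in either comparison, at -0.15 and -0.0046.

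Slc2a2, the exit carrier, had 57.8, 60.6 and 39.7 CPM in Twist cKO UUO, 52.5, 39.3 and 53.2 CPM in Snail cKO UUO, 66.9, 81.7 and 70.3 CPM in Myc cKO UUO and 16.4, 39.7 and 19.8 CPM in WT UUO kidneys. It had 132, 162 and 144 CPM in contralateral and 157, 232 and 165 CPM in healthy kidneys. Its 12 obstructed libraries also lay below the 6 unobstructed ones. In WT UUO, Slc2a2 fell by 2.53 ± 0.29 against contralateral (adjusted p = 4.09e-06) and by 2.87 ± 0.29 against healthy kidneys (adjusted p = 1.24e-06).

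Both lactate carriers fell with obstruction. Slc5a12 had 245, 218 and 163 CPM in Twist cKO UUO, 54.5, 137 and 140 CPM in Snail cKO UUO, 151, 391 and 432 CPM in Myc cKO UUO and 28.1, 94.1 and 65.6 CPM in WT UUO kidneys. It had 801, 686 and 589 CPM in contralateral and 902, 854 and 1016 CPM in healthy kidneys. Snail cKO UUO replicate 1 lay within the WT UUO range, while all Twist and Myc cKO UUO libraries lay between WT UUO and the unobstructed kidneys. Slc5a12 fell by 3.47 ± 0.48 in WT UUO against contralateral (adjusted p = 2.54e-05) and fell by 3.88 ± 0.49 against healthy kidneys (adjusted p = 9.19e-06).

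Slc5a8 had 46.6, 80.5 and 44.0 CPM in Twist cKO UUO, 135, 40.2 and 94.5 CPM in Snail cKO UUO, 69.7, 37.1 and 98.4 CPM in Myc cKO UUO and 13.6, 33.8 and 25.0 CPM in WT UUO kidneys. It had 146, 338 and 140 CPM in contralateral and 206, 458 and 135 CPM in healthy kidneys. In WT UUO it fell by 3.11 ± 0.59 against contralateral (adjusted p = 0.000449) and fell by 3.47 ± 0.60 against healthy kidneys (adjusted p = 0.000187). Slc5a8 varied widely within groups, with standard deviations of 35.7% to 63.7% of the mean, and the spread followed sex. Counts of the Y-linked Ddx3y exceeded those of the female-specific Xist in 8 of 18 libraries. In each of the 6 groups, the highest Slc5a8 library or libraries were Ddx3y libraries. They were also the higher ones in 5 of 6 groups for Slc2a2 and Slc4a4, and in 4 for Slc13a1 and Slc9a3. This held in 3 groups for Slc5a2 and Slc13a3, 2 for Slc5a1 and 1 for Slc5a12. The reverse held in 1 group each for Slc5a1, Slc5a2, Slc5a12, Slc2a2 and Slc13a3. With only 3 libraries in a group, such a separation can easily arise without any link to sex. The share of all genes with such counts was not taken, so the counts are given as a description. In a fit with sex beside the group means, Slc5a8 was higher by 1.17 ± 0.15 in Ddx3y than in Xist libraries (edgeR, adjusted p = 0.000468), and none of the other 8 genes was called. Of all genes, 3.48% were called higher and 0.874% lower in that fit, which was run after the data had been seen.

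With the sex term, Slc5a8 was also called higher against WT UUO in Twist cKO UUO (1.24, adjusted p = 0.00963), Snail cKO UUO (1.41, adjusted p = 0.0254) and Myc cKO UUO (1.06, adjusted p = 0.0143). Without it, the 3 differences were 1.24 ± 0.56 (adjusted p = 0.199), 1.90 ± 0.57 (adjusted p = 0.144) and 1.504 ± 0.56 (adjusted p = 0.0944). The groups held unequal numbers of Ddx3y libraries, 2 of 3 in Snail and Myc cKO UUO and 1 of 3 in each other group.

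**Figure D2:**
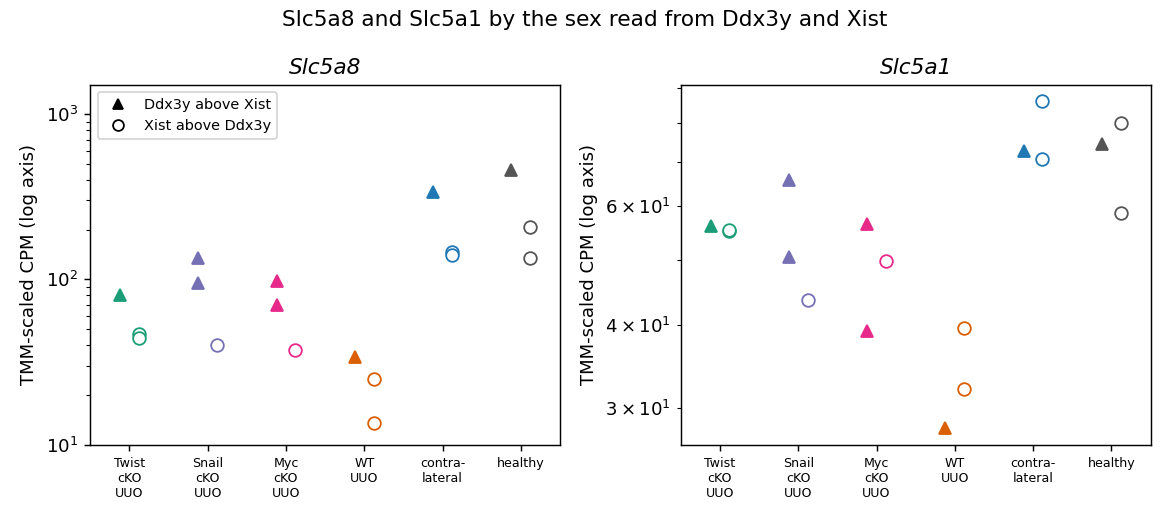
Slc5a8 and Slc5a1 in every library by group, as TMM-scaled CPM on a log axis; filled triangles are libraries with more Ddx3y than Xist counts and open circles those with more Xist. The triangles lie above the circles in all 6 groups for Slc5a8 and in 2 of 6 groups for Slc5a1.

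The sulfate carrier Slc13a1 and the dicarboxylate carrier Slc13a3 parted under obstruction. Slc13a3 had 104, 171 and 63.6 CPM in Twist cKO UUO, 45.8, 27.0 and 91.1 CPM in Snail cKO UUO, 56.7, 60.3 and 112 CPM in Myc cKO UUO and 11.2, 31.6 and 23.9 CPM in WT UUO kidneys. It had 437, 561 and 594 CPM in contralateral and 397, 334 and 412 CPM in healthy kidneys. Every obstructed library lay below every unobstructed one, and Slc13a3 had the lowest fold change of the 9 genes in both comparisons. It fell by 4.57 ± 0.52 in WT UUO against contralateral (adjusted p = 4.86e-06) and by 4.10 ± 0.51 against healthy kidneys (adjusted p = 9.16e-06), to 4.20% and 5.85% of their levels.

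Slc13a1 had 421, 419 and 349 CPM in Twist cKO UUO, 479, 376 and 528 CPM in Snail cKO UUO, 801, 703 and 873 CPM in Myc cKO UUO and 215, 518 and 249 CPM in WT UUO kidneys. It had 571, 521 and 377 CPM in contralateral and 424, 521 and 504 CPM in healthy kidneys. WT UUO replicate 2 lay among the unobstructed libraries, and the other two WT UUO libraries lay below all of them. In WT UUO the difference was -0.58 ± 0.26 against contralateral (adjusted p = 0.075) and -0.56 ± 0.26 against healthy kidneys (adjusted p = 0.0814), and with library totals alone it turned to 0.47 and 0.51, neither called. Without WT UUO replicate 2, Slc13a1 was called lower, at -1.08 against contralateral (adjusted p = 0.000377) and -1.05 against healthy kidneys (adjusted p = 0.000403). Without contralateral replicate 3 it was also called lower against contralateral kidneys, at -0.74 (adjusted p = 0.0417). With all libraries, Slc13a1 was called lower against contralateral and healthy kidneys with the sex term (-0.64 and -0.62, adjusted p = 0.0168 and 0.0191) and by limma voom (-0.67 and -0.66, adjusted p = 0.0384 and 0.0377). With a Cre term it was called lower against healthy kidneys (-0.95, adjusted p = 0.0163).

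The acid and bicarbonate carriers fell under obstruction as well, Slc9a3 more than Slc4a4. Slc9a3 had 27.5, 29.9 and 27.7 CPM in Twist cKO UUO, 21.6, 12.7 and 19.6 CPM in Snail cKO UUO, 13.1, 20.5 and 33.3 CPM in Myc cKO UUO and 6.08, 9.12 and 13.0 CPM in WT UUO kidneys. It had 83.1, 87.8 and 77.0 CPM in contralateral and 78.7, 79.6 and 72.2 CPM in healthy kidneys. The 3 Twist cKO UUO libraries lay close together, about midway on a log scale between WT UUO and the unobstructed kidneys. Slc9a3 fell by 3.13 ± 0.32 in WT UUO against contralateral kidneys and by 3.03 ± 0.32 against healthy kidneys (adjusted p = 1.69e-06 in each).

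Slc4a4 had 716, 754 and 654 CPM in Twist cKO UUO, 505, 470 and 650 CPM in Snail cKO UUO, 645, 1014 and 1287 CPM in Myc cKO UUO and 357, 475 and 411 CPM in WT UUO kidneys. It had 2117, 2215 and 1691 CPM in contralateral and 1880, 2174 and 1676 CPM in healthy kidneys. Obstructed and unobstructed libraries did not overlap. In WT UUO, Slc4a4 fell by 2.28 ± 0.22 against contralateral (adjusted p = 9.98e-07) and by 2.20 ± 0.22 against healthy kidneys (adjusted p = 9.67e-07), to 20.6% and 21.7% of their levels.

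None of the 9 genes was called between contralateral and healthy kidneys by edgeR. None had an unadjusted p under 0.05, while 3664 of all 21050 genes did. DESeq2 and limma voom also called 0, and edgeR called 2.26% of all genes. The fold changes ran from -0.42 for Slc5a12 to 0.48 for Slc13a3. For these 2 genes the groups did not overlap: all contralateral libraries lay below the healthy ones for Slc5a12 (589 to 801 against 854 to 1016 CPM) and above them for Slc13a3 (437 to 594 against 334 to 412 CPM). Such a separation was found for 20.4% of all genes in this comparison.

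Divided by the length of exonic sequence, the order of the genes differed between groups, and also between contralateral and healthy kidneys. Slc13a1 came first per kilobase in Myc cKO UUO kidneys, at 103 ± 11.0 CPM per kb (SD, n = 3), with Slc4a4 at 90.8 ± 29.8 and Slc5a12 at 79.9 ± 37.3. In WT UUO kidneys Slc13a1 at 42.4 ± 21.4 and Slc4a4 at 38.3 ± 5.46 CPM per kb led, and Slc5a12 followed at 15.4 ± 8.15. In contralateral kidneys Slc4a4 at 186 ± 25.8 and Slc5a12 at 170 ± 26.2 CPM per kb led, with Slc13a3 at 102 ± 15.9, Slc5a2 at 80.1 ± 7.87 and Slc13a1 at 63.3 ± 13.0. In healthy kidneys Slc5a12 led at 228 ± 20.5 CPM per kb, and its range lay above that of Slc4a4, at 177 ± 23.1. Slc5a2 at 77.0 ± 1.81, Slc13a3 at 73.0 ± 7.92 and Slc13a1 at 62.5 ± 6.72 followed there. The leading 2 genes had overlapping ranges in contralateral and WT UUO kidneys, and the leading 3 in Myc cKO UUO kidneys. The lower end of the order in WT UUO was also crowded: Slc5a1, Slc5a2, Slc5a8, Slc2a2 and Slc13a3 had means of 4.27 to 8.09 CPM per kb, and only Slc9a3, at 1.71 ± 0.633, had a mean below them. Slc9a3 had the lowest mean per kilobase in all 6 groups.

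**Figure D3:**
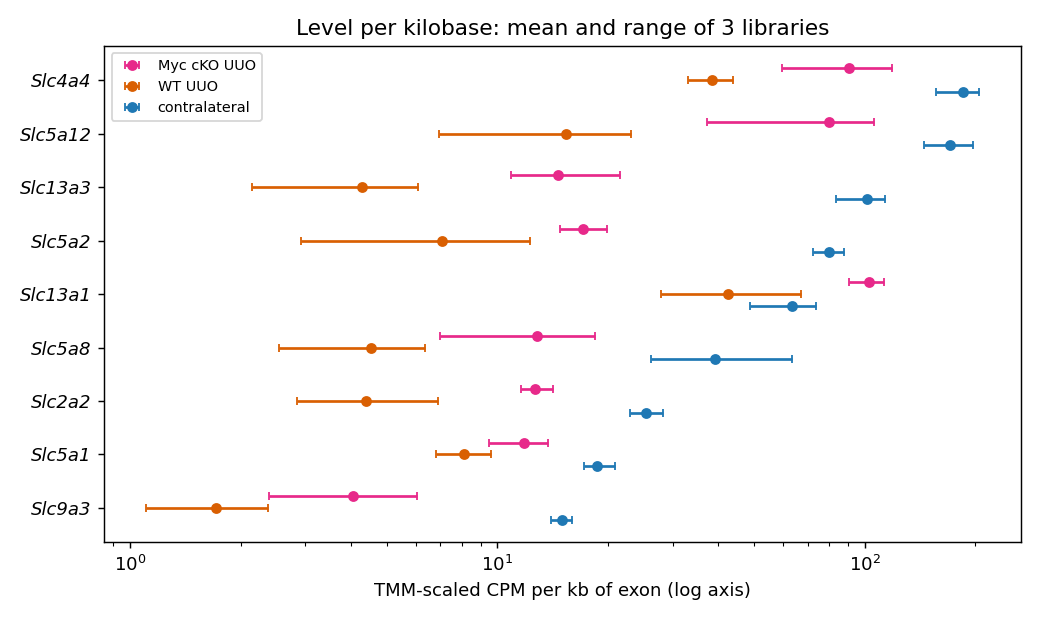
Level per kilobase of exon for the 9 genes on a log axis, as the mean (point) and range (bar) of 3 libraries in Myc cKO UUO, WT UUO and contralateral kidneys, with genes ordered by the contralateral mean. Slc13a1 is the gene whose Myc cKO UUO range (91.0 to 113 CPM per kb) lies above its contralateral range (48.7 to 73.9).

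Each knockout was set against WT UUO, the comparison the design makes for the deleted gene. In Twist cKO UUO, 6 of the 9 genes were called higher than in WT UUO, where 2.97% of all genes were called higher, and the median log2 fold change was 1.24, with that of all genes at -0.01. Slc13a3 rose by 2.34 ± 0.48 (adjusted p = 0.022), Slc5a12 by 1.74 ± 0.45 (adjusted p = 0.0399) and Slc9a3 by 1.59 ± 0.30 (adjusted p = 0.0178). Slc2a2 rose by 1.06 ± 0.27 (adjusted p = 0.0403), Slc4a4 by 0.77 ± 0.21 (adjusted p = 0.0475) and Slc5a1 by 0.74 ± 0.17 (adjusted p = 0.0297). Twist cKO UUO and WT UUO libraries did not overlap for these 6 genes and Slc5a8, a separation in this direction shown by 15.7% of all genes. Slc5a2 (1.24 ± 0.44, adjusted p = 0.112) and Slc13a1 (0.28 ± 0.26, adjusted p = 0.58) had positive differences with overlapping ranges. The count of calls turned on single libraries: it was 0 without WT UUO replicate 1 or Twist cKO UUO replicate 2, 2 without Twist cKO UUO replicate 1 or 3, and 3 without WT UUO replicate 3. With the Twist cKO UUO and WT UUO libraries fitted alone it was 3. The share of all genes called in each of these fits is not given here.

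In Myc cKO UUO, 6 of the 9 genes were called higher than in WT UUO, where 5.31% of all genes were, and the median log2 fold change was 1.28, with that of all genes at 0.0012. Slc5a12 rose by 2.37 ± 0.46 (adjusted p = 0.0064), Slc13a3 by 1.78 ± 0.47 (adjusted p = 0.0249) and Slc2a2 by 1.53 ± 0.28 (adjusted p = 0.0047). Slc13a1 rose by 1.27 ± 0.26 (adjusted p = 0.0088), Slc9a3 by 1.25 ± 0.30 (adjusted p = 0.0173) and Slc4a4 by 1.24 ± 0.21 (adjusted p = 0.00381). Myc cKO UUO and WT UUO libraries did not overlap for 8 genes, all but Slc5a1, against 15.3% of all genes in this direction. For Slc9a3 the gap was narrow, from 13.1 CPM in Myc cKO UUO replicate 1 down to 13.0 CPM in WT UUO replicate 3. Slc5a1 (0.55 ± 0.17, adjusted p = 0.0517), Slc5a2 (1.28 ± 0.44, adjusted p = 0.073) and Slc5a8 fell short of the threshold. Slc5a12, Slc2a2, Slc13a1 and Slc4a4 were called in each of the 6 fits that left out 1 library. Slc13a3 lost the call without WT UUO replicate 1 (adjusted p = 0.104), WT UUO replicate 3 (0.0583) or Myc cKO UUO replicate 3 (0.123), and Slc9a3 without WT UUO replicate 1 (0.0749) or Myc cKO UUO replicate 3 (0.0943). With WT UUO replicate 1 and Myc cKO UUO replicate 3 both left out, a choice made after the data had been seen, 0 of the 9 were called. Fitted on the WT UUO and Myc cKO UUO libraries alone, edgeR also called 0 of the 9. On all libraries, DESeq2 called 9 of the 9 higher, adding Slc5a1 (adjusted p = 0.0172), Slc5a2 (0.0171) and Slc5a8 (0.0499), and limma voom called 8, adding Slc5a1 (0.0493) and Slc5a2 (0.0373). The shares of all genes called in these alternative fits are not given here, so these counts have no background beside them.

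In Snail cKO UUO all 9 differences from WT UUO were positive, with a median of 0.82 where that of all genes was -0.0046, and edgeR called 0 of them; it called 0.299% of all genes in either direction. In edgeR, 5 genes had an unadjusted p under 0.05, namely Slc5a1, Slc5a8, Slc2a2, Slc13a3 and Slc9a3, as did 3130 of all 21050 genes. DESeq2 called 4 of the 9 and limma voom 0. The largest difference was that of Slc5a8 (1.90 ± 0.57, adjusted p = 0.144), followed by Slc13a3 (1.30 ± 0.46, adjusted p = 0.213). Libraries did not overlap for Slc5a1 and Slc5a8, a separation in this direction shown by 12.8% of all genes. Without WT UUO replicate 2, 1 gene was called, Slc2a2 (1.43, adjusted p = 0.0189). The 3 knockout comparisons share the same WT UUO kidneys, so their fold changes are not independent of each other.

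**Figure D4:**
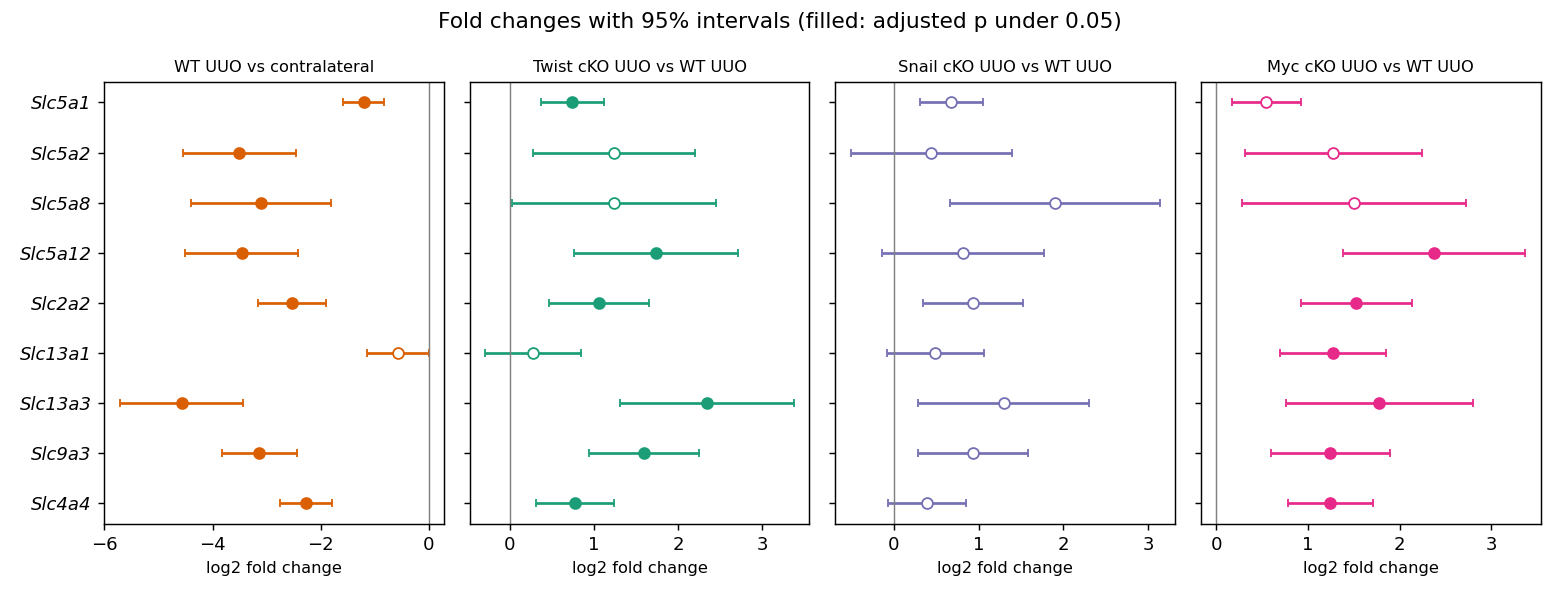
Log2 fold changes of the 9 genes with 95% intervals, for WT UUO against contralateral kidneys and for each knockout against WT UUO; filled points had an adjusted p under 0.05. In all, 8 points are filled in the first panel (TMM scaling; with library totals alone Slc5a1 is not called and Slc13a1 turns positive, uncalled), 6 for Twist, 0 for Snail and 6 for Myc cKO UUO.

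Between knockouts, edgeR called 0 of the 9 genes in Twist against Snail cKO UUO, where it called 0.171% of all genes. An unadjusted p under 0.05 was found for 2 of the 9 and for 1373 of all 21050 genes, and DESeq2 and limma voom called 0 of the 9. In Myc against Twist cKO UUO edgeR also called 0, where 2.99% of all genes were called. Here 2 of the 9 and 3698 of all 21050 genes had an unadjusted p under 0.05, and DESeq2 and limma voom each called 1 of the 9. That gene was Slc13a1, whose difference was 0.998 ± 0.26 (adjusted p = 0.0549) and whose libraries did not overlap. In Myc against Snail cKO UUO, 1 of the 9 was called, where 0.523% of all genes were called higher. It was Slc4a4 (0.86 ± 0.21, adjusted p = 0.0462), whose ranges overlapped, since Myc cKO UUO replicate 1 at 645 CPM lay just below Snail cKO UUO replicate 3 at 650 CPM.

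Against contralateral kidneys, most of the transporters were still lower in each knockout. In Twist cKO UUO 8 were called lower, all but Slc13a1, where 21.4% of all genes were called lower. Slc5a1 lost that call in each of the 6 fits that left out 1 library (adjusted p = 0.0511 to 0.144), and Slc5a8 lost it without contralateral replicate 2 or Twist cKO UUO replicate 1 or 3. In Snail cKO UUO 7 were, all but Slc13a1 and Slc5a8, where 22.8% of all genes were. Slc5a8 was at -1.21 there (adjusted p = 0.0884), and with the sex term it was called lower, at -1.62 (adjusted p = 0.000101). Slc5a1 lost its call without contralateral replicate 3 or Snail cKO UUO replicate 2 or 3. In Myc cKO UUO 7 were called lower, where 22.5% of all genes were, Slc5a12 was not called (-1.09 ± 0.44, adjusted p = 0.0558), and Slc13a1 was called higher, where 22% of all genes were. The Slc13a1 difference there was 0.70 ± 0.26 (adjusted p = 0.0422), and the call was lost without contralateral replicate 2 or 3 or Myc cKO UUO replicate 1 or 3. Slc5a1 fell by 0.46, 0.52 and 0.66 in Twist, Snail and Myc cKO UUO. With library totals alone, edgeR instead called it higher in Twist (0.43, adjusted p = 0.0174) and Snail cKO UUO (0.42, adjusted p = 0.0197). In Myc cKO UUO it was then at 0.11 and not called (adjusted p = 0.511). Slc13a1 differed by -0.30 in Twist and -0.09 in Snail cKO UUO, neither called, and with library totals alone by 0.59 (not called) and 0.86 (adjusted p = 0.00837). With TMM scaling, in Twist, Snail and Myc cKO UUO in turn, Slc13a3 was at 21.3%, 10.3% and 14.4% of the contralateral level, Slc5a2 at 20.8%, 12.0% and 21.3%, Slc2a2 at 36.1%, 33.1% and 49.9%, and Slc4a4 at 35.3%, 27.0% and 48.9%. With library totals alone, edgeR did not call Slc2a2 (-0.21, adjusted p = 0.459), Slc4a4 (-0.27, 0.154) or Slc5a8 (-0.81, 0.155) in Myc cKO UUO. Nor did it call Slc5a8 (-0.97, 0.0882) or Slc5a12 (-0.84, 0.0923) in Twist cKO UUO. Slc5a2, Slc13a3 and Slc9a3 stayed called lower in each knockout.

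Ratios of 2 genes within a library barely depend on the scaling between libraries. They were taken from the CPM values with nothing added, and adding 0.5 CPM to each gene was an alternative. The 5 pairs were compared by exact permutation tests, two-sided, with p-values adjusted over the 5 pairs. The 12 obstructed kidneys were set against the 6 unobstructed ones. The log2 ratio of Slc13a3 to Slc13a1 was -3.12 ± 0.89 (SD, n = 12) in obstructed and -0.11 ± 0.45 (n = 6) in unobstructed kidneys, a difference of -3.02 (exact permutation test, adjusted p = 0.000269). That of Slc5a2 to Slc5a1 was -0.56 ± 0.86 in obstructed and 1.63 ± 0.23 in unobstructed kidneys, a difference of -2.19 (exact permutation test, adjusted p = 0.000269). For both pairs the 2 sets of libraries did not overlap, and the unadjusted p of 0.000108 is the smallest these numbers of kidneys allow. The geometric mean ratio of Slc5a2 to Slc5a1 was 0.816 in Twist, 0.484 in Snail and 1.03 in Myc cKO UUO and 0.527 in WT UUO, against 3.04 in contralateral and 3.17 in healthy kidneys.

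Slc5a2 fell relative to Slc2a2 by 1.01 on the log2 scale in obstructed kidneys, with means of -0.53 ± 0.54 in obstructed and 0.48 ± 0.31 in unobstructed kidneys (exact permutation test, adjusted p = 0.000539). Slc9a3 fell relative to Slc4a4 by 0.54, with means of -5.15 ± 0.48 in obstructed and -4.61 ± 0.11 in unobstructed kidneys (exact permutation test, adjusted p = 0.0131). In Twist cKO UUO this last ratio was -4.64 ± 0.07 (SD, n = 3), inside the unobstructed range, and in Myc cKO UUO it was -5.51 ± 0.20. The ratio of Slc5a12 to Slc5a8 differed by -0.47 (1.44 ± 1.13 in obstructed and 1.91 ± 0.80 in unobstructed kidneys; exact permutation test, adjusted p = 0.383). Between the 9 knockout and the 3 WT UUO kidneys none of the 5 ratios passed the threshold; adjusted p ran from 0.273 to 0.891, and the lowest belonged to Slc13a3 over Slc13a1, with a difference of 1.03 (exact permutation test, unadjusted p = 0.0545).

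**Figure D5:**
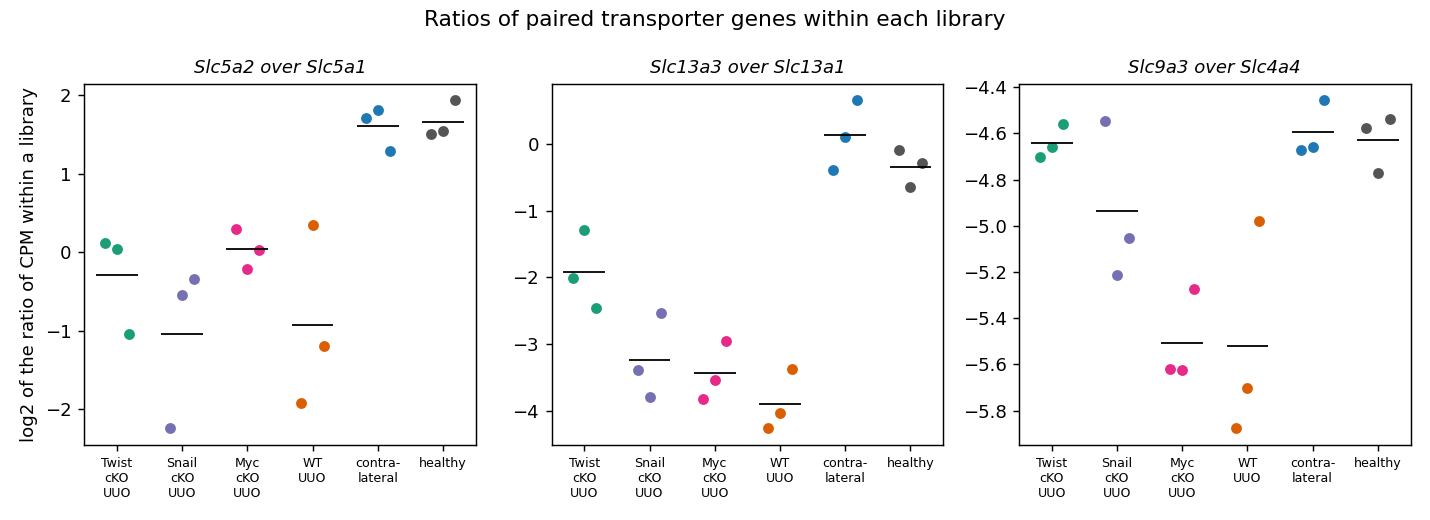
Log2 ratios of 3 gene pairs within each library, with 1 point per library and a line at the mean of each group. For Slc5a2 over Slc5a1 and for Slc13a3 over Slc13a1 all 12 obstructed libraries lie below the 6 unobstructed ones; for Slc9a3 over Slc4a4 the Twist cKO UUO libraries (-4.70 to -4.56) lie among the unobstructed ones.

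Other genes of the same transport pathways moved in the same directions in part. Of 6 other glucose transport genes, 5 were called lower in WT UUO against contralateral kidneys, with a median of -2.36, among them Slc5a11 (-3.32 ± 0.33, adjusted p = 1.57e-06), a sodium-coupled carrier of inositol and glucose, and Pdzk1ip1 (-2.06 ± 0.20, adjusted p = 1.06e-06), the accessory protein of Sglt2. Slc2a1, the glucose carrier found in most cells, was not called (-0.12 ± 0.30, adjusted p = 0.758). Slc5a11, Pdzk1ip1 and Slc5a9 were called higher in both Twist cKO UUO and Myc cKO UUO against WT UUO, and 0 of the 6 in Snail cKO UUO. Of 5 other carboxylate and sulfate genes, 4 were called lower in WT UUO against contralateral kidneys, with a median of -1.69, and the lactate carrier Slc16a1 was not (-0.15 ± 0.27, adjusted p = 0.665). Slc16a4 was called higher in Twist cKO UUO against WT UUO, and Slc16a4 and the sulfate exchanger Slc26a1 in Myc cKO UUO. Of 11 other genes of sodium and bicarbonate transport, 9 were called lower against contralateral kidneys, with a median of -2.12. Among those not called was the membrane linker Ezr (-0.28 ± 0.16, adjusted p = 0.144). Against WT UUO, Twist cKO UUO had 7 of them called higher, Myc cKO UUO 6 and Snail cKO UUO 0, with Car4, a membrane carbonic anhydrase, at 1.43 ± 0.39 (adjusted p = 0.0495) in Twist and 1.67 ± 0.40 (adjusted p = 0.0167) in Myc cKO UUO.

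Markers of the tubule and of other cells moved beside the transporters. Of the 11 proximal tubule markers, 7 were called higher in Twist and 8 in Myc cKO UUO against WT UUO. Snail cKO UUO had 1 called higher, the water channel Aqp1 (1.42 ± 0.25, adjusted p = 0.0284). Their summed levels were 2569 to 4433, 1796 to 2906 and 2530 to 4609 CPM in Twist, Snail and Myc cKO UUO. All 4 early-segment markers were called lower in WT UUO against contralateral kidneys, and 2 of 4 late-segment markers. The median log2 fold changes were close, at -3.34 for early and -3.23 for late markers. The summed levels parted more. Early-segment sums were 90.9 to 323 CPM in WT UUO and 2647 to 4194 CPM in contralateral kidneys. Late-segment sums were 88.6 to 174 CPM in WT UUO and 548 to 1472 CPM in contralateral kidneys. The 6 tubular injury markers, with Havcr1 (Kim-1) among them, were all called higher in WT UUO against contralateral kidneys, and 0 were called between any knockout and WT UUO (edgeR); their summed levels were 7810 to 9786 CPM in Twist, 7914 to 9183 in Snail and 8471 to 11881 in Myc cKO UUO and 8455 to 9975 CPM in WT UUO, against 613 to 1283 CPM in contralateral kidneys. The 5 fibroblast markers were all called higher in WT UUO against contralateral kidneys, and 2 were called lower in Twist and 3 in Myc cKO UUO against WT UUO. The fibroblast sums were 1181 to 1437 CPM in Twist, 1738 to 2547 in Snail and 439 to 2229 in Myc cKO UUO and 2616 to 5309 CPM in WT UUO, against 138 to 221 CPM in contralateral kidneys. The part of these shifts in the transporter levels was not tested.

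The same holds for the other marker lists, whose part was not tested either. Macrophage sums were 249 to 290 CPM in Twist, 249 to 333 in Snail and 270 to 338 in Myc cKO UUO and 331 to 488 CPM in WT UUO, against 62.3 to 76.5 CPM in contralateral kidneys. Against WT UUO, 2 of the 4 macrophage genes in the table were called lower in Twist and 2 in Myc cKO UUO. Endothelial sums were 183 to 221, 206 to 225 and 213 to 230 CPM in Twist, Snail and Myc cKO UUO and 248 to 349 CPM in WT UUO, and 2 of 4 genes were called lower in Twist and 2 in Myc cKO UUO. Of 6 loop and distal markers, 6 were called lower in WT UUO against contralateral kidneys and 2 were called higher in Twist and 1 in Myc cKO UUO against WT UUO. In the knockout comparisons with WT UUO, 0 of 3 T cell, 0 of 3 urothelial, 0 of 3 adipocyte and 0 of 3 podocyte markers were called. In WT UUO against contralateral kidneys, 3 of 3 urothelial markers were called higher (median 4.26), 2 of 3 T cell markers higher and 0 of 3 adipocyte markers. In the same comparison 3 of 3 podocyte markers were called lower (median -0.98), 4 of 4 macrophage markers higher, and 3 endothelial markers higher and 1 lower. Urothelial sums were 17.2 to 278 CPM in WT UUO and 1.04 to 9.16 CPM in contralateral kidneys.

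For each transporter, the gene with the most similar course was found as the smallest root-mean-square difference of centred log2 CPM over the 18 libraries, among 12049 genes. The closest course to Slc4a4 was that of Atp6v0a4 (0.18) and to Slc5a1 that of Clcn2 (0.18). Slc5a8 was closest to Pank1 (0.21), Slc9a3 to Slc5a11 (0.23), Slc2a2 to Msra (0.24), Slc13a1 to Strip2 (0.33) and Slc13a3 to Ass1 (0.34). Slc5a2 (0.35) and Slc5a12 (0.41) shared Kmo as their closest gene. Among the 9 themselves, Slc2a2 and Slc4a4 were most alike (0.36), and Slc13a1 and Slc13a3 least (1.60). These courses share libraries and depth and are given as a description.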

How the data were processed

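Whole-kidney RNA was sequenced with a stranded whole-transcriptome kit as paired reads of 75 bases, per the labels. The deposited table holds raw read counts per gene; the submitters' processing notes name bcl2fastq 1.8.4, HTSeq, DESeq2 and mm10, with neither aligner nor annotation given. Its 6 columns that match no sample were not used. The 9 genes and all lists were chosen with earlier results of these data known. Counts were fitted in R 4.3.3 with edgeR 4.0.16 (filterByExpr, TMM, robust quasi-likelihood, 12 residual degrees of freedom) on the 18 libraries together, as 6 group means and 12 contrasts. Limma 3.58.1 voom, DESeq2 1.42.0, library totals alone, other filters, a 1.5-fold minimum, Cre and sex terms, each comparison's 2 groups alone and each library left out were alternatives. Ratios were tested by exact permutation with scipy 1.17.1. Exon lengths came from GENCODE M21. The genes named were the 9, those of the lists, the targeted genes and, for each of the 9, the most similar genes. Libraries held 52637555 to 91340782 counts. The fit was also run on simulated counts with known changes and the same dispersion for every gene, a simpler setting than these data.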

Additional observations from a re-analysis of the deposited data

Results flagged for a closer look

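In 1 of the 9 genes, 2 knockouts differed by a test of the difference itself. Slc4a4 was higher in Myc cKO UUO than in Snail cKO UUO kidneys by 0.86 on the log2 scale (edgeR, adjusted p = 0.0462). Leaving out 1 library at a time moved the difference between 0.61 and 1.09 and the adjusted p between 0.0124 and 0.192, with the call lost in 5 of 6 fits. Knockout and line differ together between these groups.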

How the results depend on the processing

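The 8 genes called lower in WT UUO against contralateral and healthy kidneys stayed called in every fit that left out 1 library, and the counts against each were 8 to 9, with Slc13a1 gained. The count against contralateral kidneys was 6 to 7 for Twist (8 with all libraries) and 6 to 7 for Snail cKO UUO (7 with all). For Twist cKO UUO against WT UUO the count of 6 became 3 with library totals alone, 3 with a Cre term, 3 with the 2 groups alone and 0 with a 1.5-fold minimum, and 0 to 5 with 1 library left out. For Myc cKO UUO against WT UUO the count of 6 became 0 with a 1.5-fold minimum, 0 with the 2 groups alone, 0 without WT UUO replicate 1 and Myc cKO UUO replicate 3, and 4 to 7 with 1 library left out, while DESeq2 gave 9, limma voom 8 and a Cre or sex term 7. For Snail cKO UUO against WT UUO the count of 0 became 4 with DESeq2, 1 with a sex term and 0 to 1 with 1 library left out. Myc cKO UUO against contralateral kidneys had 4 calls with library totals alone, 4 with a 1.5-fold minimum and 6 to 8 with 1 library left out. Myc against Twist cKO UUO had 1 call, Slc13a1, with a filter of 1 CPM in 3 libraries, DESeq2, limma voom, a Cre term or a sex term. Myc against Snail cKO UUO had 3 calls with DESeq2, 0 with library totals alone, a 1.5-fold minimum, a Cre term or the 2 groups alone, and 0 to 2 with 1 library left out. With library totals alone, Slc5a1 reversed against contralateral kidneys to 0.43 in Twist and 0.42 in Snail cKO UUO, both called higher. It turned to 0.11 in Myc cKO UUO, not called, and Slc13a1 turned to 0.86 in Snail cKO UUO, called higher. With the same scaling, Slc5a8 and Slc5a12 lost their calls against contralateral kidneys in Twist cKO UUO. No alternative changed the call of a ratio. The cause of these changes was not tested. The share of all genes called is given for the main fit alone, so a change in a count may not be particular to the transporters. No paired analysis was run because the replicate numbers follow accession order and the labels tie no kidneys to each other. Contralateral and WT UUO replicates of the same number matched in Cre status and in the sex read from Ddx3y and Xist. Whether they came from the same animals is not known, and the tests treated all kidneys as independent.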
